A study of Mus musculus with 48 samples.

Results

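The interferon and nucleic acid sensing genes described here are 34 mouse genes, each matched by its symbol to a row of the deposited RNA-seq table, which holds 48321 rows. They comprise the oligoadenylate synthetase family, the cytoplasmic RNA sensors with their adaptor, the type I interferon receptor and its transcription factors, and interferon-stimulated effectors. They are listed by function, with no threshold on a measured value, but were chosen with earlier results of these data known. Shares of the group set beside those of all genes below are therefore descriptions and no test of the group. All 34 have a row, 26 reached 1 TPM (read count scaled to gene length and library depth) in at least 3 libraries and were tested, and 8 stayed below that minimum. Those 8 are Oasl2, Ifih1, Irf7, Usp18, Ifit1, Ifit3, Rsad2 and Rtp4.

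The cells are male mouse R1 embryonic stem cells of strain 129SV, held in a naive state in 2i+LIF, a serum-free N2B27 medium with the MEK inhibitor PD0325901, the GSK3 inhibitor CHIR99021 and leukaemia inhibitory factor. Polyadenylated RNA was sequenced from 3 lines with 3 libraries each. These are wild-type cells (WT), cells in which Mll3 and Mll4 were both knocked out (dKO), and cells whose Mll3 and Mll4 proteins are present but catalytically deficient (dCD). Mll3 and Mll4, encoded by Kmt2c and Kmt2d, are the methyltransferases that place H3K4me1 at enhancers, so dKO lacks protein and activity while dCD lacks the activity. All lines share the same medium and the labels name no interferon or virus treatment. The labels name 1 line per genotype, so the effect of a clone and that of its genotype cannot be told apart, and whether the 3 libraries of a line are separate cultures is not stated. The p-values therefore reflect library-to-library spread that could be technical in part or whole.

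In the innate response to viruses, RIG-I (Ddx58) and MDA5 (Ifih1) bind viral RNA in the cytoplasm and signal through Mavs, and Irf3 and Irf7 then switch on type I interferons. Secreted interferon binds the receptor chains Ifnar1 and Ifnar2, which activate a complex containing Stat2 and Irf9 that binds interferon-stimulated response elements, and this raises many effector genes, the sensors among them. Pluripotent stem cells are known for a weak interferon response and for constitutive expression of some effectors.

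The libraries held 21090624 to 56249770 reads, and a tested gene of this group held 0 to 19246 reads per library with a median of 407.5. Pearson's r of log2(TPM + 1) ran from 0.994 to 0.996 between libraries of a line and from 0.940 to 0.968 between lines. Kmt2c fell from 21.6, 19.7 and 21.9 TPM in WT to 8.0, 7.55 and 7.44 TPM in dKO (log2 fold change -1.35, limma adjusted p = 8.37e-09), and was 28.6, 25.3 and 27 TPM in dCD (0.34, adjusted p = 0.000491). The 3 values of Kmt2d were 67.4, 65.2 and 66.6 TPM for WT and 84.8, 80.5 and 83.5 TPM for dKO, so its RNA did not fall. The labels do not give the deleted part of the gene, so Kmt2d RNA is no check of them. All 10 embryonic stem cell markers were detected, and their summed level was 14908.7 to 15405.6 TPM in WT, 7674.8 to 7744.6 TPM in dKO and 11161.6 to 11503.1 TPM in dCD. Much of the dKO fall was Dppa5a, with means of 6432.7, 1199.4 and 4908.6 TPM in WT, dKO and dCD. Of the 10, 8 were called lower and 1 higher in dKO, and 8 and 1 in dCD, where 28.4% and 29.5% of all genes were lower. Utf1 (means of 1130.6, 499.2 and 701.6 TPM) and Fgf4 (444.9, 178.2 and 466.5 TPM) also fell at least 2-fold in dKO. Pou5f1 had means of 1684.3, 1450.5 and 1279.5 TPM, Tfcp2l1 was called in neither line, and Klf4 rose from 475.3 to 808.5 TPM in dKO. The summed level of 10 fibroblast and feeder markers was 8.14 to 9.75 TPM in WT, 19.2 to 21.5 TPM in dKO and 30.3 to 32.3 TPM in dCD, with Pdgfra, Fap, Postn, Lum and Dcn under 1 TPM in every library. Means in WT, dKO and dCD were 0.47, 10.2 and 7.57 TPM for Col1a1 and 0.0189, 1.28 and 6.45 TPM for Col1a2. They were 0.00873, 1.11 and 1.23 TPM for Col3a1 and 5.91, 6.6 and 11.1 TPM for Pdgfrb. Thy1, at 2.18, 0.412 and 3.39 TPM, was lower in dKO. The sum of 10 macrophage and leukocyte markers was 66.3 to 71.9 TPM in WT, 19.0 to 23.3 TPM in dKO and 39.6 to 45.6 TPM in dCD. Nearly all of it was Cd68 (mean 64.3, 19.7 and 39.1 TPM), with Ptprc, Csf1r, Adgre1, Lyz2, Tyrobp and Fcer1g under 1 TPM in every library. Means of Spi1 were 1.84, 0.655 and 2.15 TPM, of Itgam 1.09, 0.154 and 0.618 TPM, and of Cd14 1.05, 0.738 and 0.549 TPM. The sum of 6 endothelial markers was 72.8 to 76.7, 30.3 to 33.6 and 63.3 to 66.8 TPM, most of it Pecam1 (mean 67.2, 20.8 and 58.6 TPM). Cldn5 (5.28, 1.06 and 2.67 TPM) was lower in both lines, while Kdr (0.735, 3.11 and 0.702 TPM) and Tek (1.41, 6.69 and 2.68 TPM) were higher in dKO than in WT. Cdh5 and Emcn were under 1 TPM in every library. No marker was at 0 in all libraries, and the part of these shifts in the results below was not tested. In bulk RNA, fewer cells expressing a gene and less RNA per cell cannot be told apart.

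In dKO against WT, 4 oligoadenylate synthetases, the RNA sensor Ddx58 and the giant ubiquitin ligase Rnf213 fell at least 2-fold, and no tested gene of the group rose 2-fold. Over all tested genes, 7.89% fell and 6.01% rose that far. The falls of Oas1a, Oas1g, Oas3 and Ddx58 also passed 2-fold in dCD, where Oas2 and Rnf213 fell by less. Oas3 lay at the line there (log2 fold change -1.02), and 2.32% of all tested genes fell 2-fold in dCD. The tested receptor chains and transcription factors changed by less than 2-fold in both lines. Genes near the limit of detection, such as Ifih1 and Rsad2, had more reads in both mutant lines than in WT, while Rtp4, also near the limit, had fewer.

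Differences were tested with limma on log2(TPM + 1) across 16179 genes, and a gene was called at a Benjamini-Hochberg adjusted p under 0.05. In dKO against WT, 7 of the 26 tested genes of the group were higher, 12 were lower and 7 were not called, where the shares over all genes were 43.4% higher and 28.4% lower (71.8% called in either direction). Under median-ratio scaling the higher calls are 50.5% of all calls over all genes, against 60.4% as deposited. Falls of at least 2-fold were called for 6 of the 26 genes, where the share over all tested genes was 7.89%. Rises of at least 2-fold were called for 0 of the 26, by limma at the adjusted and at the unadjusted p and by voom on recovered reads, where the share over all genes was 6.01%. The median log2 fold change of the 26 genes was -0.10, and that of all tested genes was 0.10. The dKO and WT libraries did not overlap for 19 of the 26 genes, where the share over all genes was 74.4%.

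In dCD against WT, 5 of the 26 genes were higher, 11 were lower and 10 were not called, where the shares over all genes were 28.9% higher and 29.5% lower (58.4% in either direction). Isg15, one of the 5 and of the non-overlapping genes below, passed the minimum through the dCD libraries alone and had to differ. Falls of at least 2-fold were called for 4 of the 26, where 2.32% of all genes fell so far. Rises of at least 2-fold were called for 0 of the 26 by limma at the adjusted and at the unadjusted p, and for 1, Isg15, by voom, where the share over all genes was 4.62%. The median was -0.09 for the 26 genes and -0.01 for all. The dCD and WT libraries did not overlap for 19 of the 26 genes, against 63.5% of all genes. Both mutant lines were compared with the same WT libraries, so their values are given side by side. The genes called lower in both comparisons were Oas1a, Oas1c, Oas1g, Oas2, Oas3, Ddx58, Rnf213 and Adar, and those called higher in both were Ifnar1, Bst2 and Eif2ak2. Trim25 and Dtx3l were called in opposite directions. The dKO calls of Dtx3l, Adar and Eif2ak2 were lost under several alternatives, given with each gene below.

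**Figure D1:**
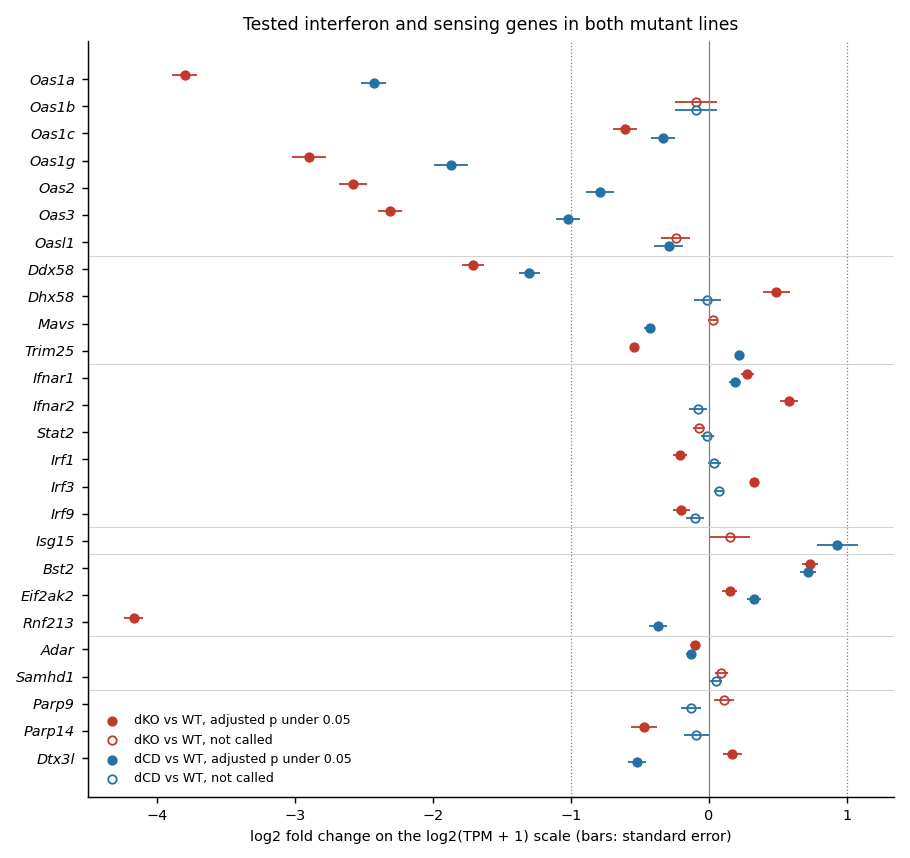
Log2 fold change on the log2(TPM + 1) scale for the 26 tested genes, grouped by role, for dKO against WT and dCD against WT, with bars of 1 standard error. Rnf213 at -4.17 and Oas1a at -3.80 lie farthest to the left in dKO, and Ddx58 at -1.71 in dKO and -1.30 in dCD is the one sensor past 2-fold.

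The oligoadenylate synthetases make 2-5A from ATP once they bind long RNA duplexes, and 2-5A activates the RNA-degrading enzyme RNase L. Of the 7 tested family members, 5 were lower in dKO and 6 were lower in dCD, where 28.4% and 29.5% of all genes were lower. Of the 6, the call of Oasl1 is lost under several alternatives. Higher calls numbered 0 in either line by limma, at the adjusted and at the unadjusted p. The family's median log2 fold change was -2.31 in dKO and -0.79 in dCD. The short paralogs Oas1a to Oas1h share sequence, and the counting of multi-mapped reads is not stated in the sources used here, so the value of a single Oas1 copy is uncertain.

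Oas1a, a catalytically active short synthetase, was the highest family member in WT, at 27.1, 24.3 and 23.4 TPM. Its level was 0.959, 0.912 and 0.733 TPM in dKO and 3.81, 4.27 and 3.38 TPM in dCD. The 3 lines did not overlap, with every dKO library under every dCD library and every dCD library under every WT library. The log2 fold change was -3.80 (SE 0.0876, limma adjusted p = 1.09e-10) in dKO and -2.43 (adjusted p = 7.32e-09) in dCD, and the difference of dKO from dCD was -1.37 (adjusted p = 2.65e-07).

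Oas1g, a close paralog of Oas1a, was at 6.87, 8.59 and 8.26 TPM in WT, 0.276, 0.259 and 0.0492 TPM in dKO, and 1.73, 1.37 and 1.21 TPM in dCD. It kept the same order of lines with no overlap. Its log2 fold change was -2.90 (SE 0.123, limma adjusted p = 9.04e-09) in dKO and -1.87 (adjusted p = 5.79e-07) in dCD. The difference of dKO from dCD was -1.03 (adjusted p = 3.11e-05), and it was under 2-fold on this scale when dKO replicate 3 or dCD replicate 1 was left out.

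Oas2, the family member with a pair of synthetase units, was at 6.5, 7.51 and 6.71 TPM in WT, 0.203, 0.363 and 0.388 TPM in dKO, and 4.18, 3.2 and 3.38 TPM in dCD. The dCD libraries lay between the other lines, with no overlap. The log2 fold change was -2.58 (SE 0.104, limma adjusted p = 5.87e-09) in dKO and -0.79 (adjusted p = 9.23e-05) in dCD, and dKO was below dCD by -1.80 (adjusted p = 1.21e-07).

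Oas3, the longest synthetase, was at 5.96, 6.21 and 5.67 TPM in WT, 0.365, 0.372 and 0.473 TPM in dKO, and 2.58, 2.13 and 2.54 TPM in dCD. Its lines also did not overlap. The log2 fold change was -2.31 (SE 0.0858, limma adjusted p = 3.38e-09) in dKO and -1.02 (adjusted p = 3.44e-06) in dCD, and dKO was below dCD by -1.28 (adjusted p = 3.62e-07). The dCD fall lay at the 2-fold line and was under it when WT replicate 2 or dCD replicate 2 was left out.

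The added 1 TPM shrinks the falls of these low levels. In the voom fit on recovered reads described with the low genes, which has no such pseudocount, the dKO value was -4.84 for Oas1a, -5.47 for Oas1g, -4.45 for Oas2 and -3.91 for Oas3. The dCD value there was -2.74, -2.51, -0.98 and -1.30 in the same order, and dKO was below dCD by -2.09, -2.95, -3.47 and -2.61. All of these were called. The dKO level rests on 43, 12, 38 and 75 reads over its 3 libraries in the same order. The standard error of the dKO value of Oas1g was 0.452.

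The remaining tested synthetases changed less. Oas1c was at 4.46 ± 0.0976 TPM (SD, n = 3) in WT, and fell by 0.61 on the log2 scale in dKO (limma adjusted p = 9.71e-05) and by 0.33 in dCD (adjusted p = 0.00791). Oas1b, which RefSeq lists as a transcribed pseudogene in the reference strain, ran from 1.34 to 2.44 TPM in WT and was not called in dKO (-0.09, adjusted p = 0.6) or dCD (-0.09, adjusted p = 0.646), with libraries that overlap. Oasl1, a synthetase-like protein known in mouse to restrain Irf7 translation, was at 1.43 to 1.93 TPM in WT, 1.1 to 1.36 TPM in dKO and 1.04 to 1.31 TPM in dCD. It was not called in dKO (-0.24, adjusted p = 0.0642) and was called lower in dCD (-0.29, adjusted p = 0.0381). That call was lost, at an adjusted p of 0.0502 to 0.134, without WT replicate 1 or 3, dCD replicate 1 or 3, or dKO replicate 1.

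**Figure D2:**
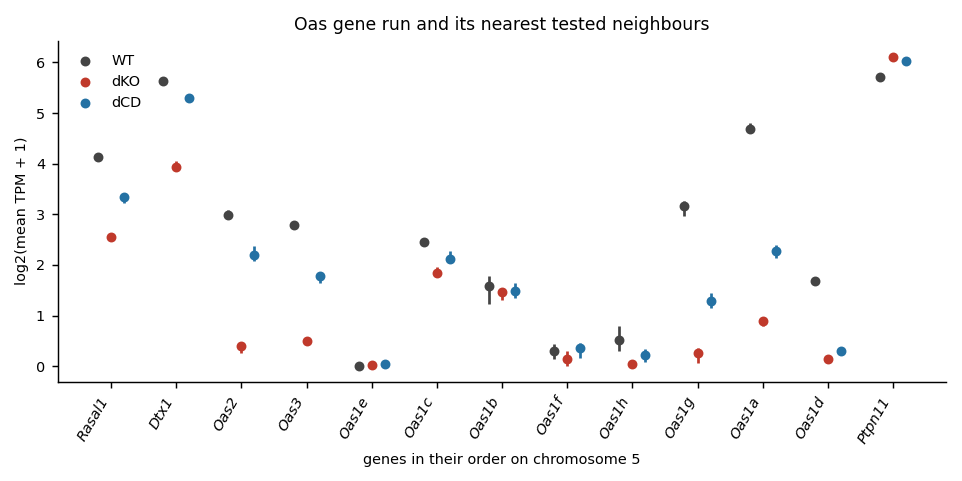
Levels as log2(mean TPM + 1) of the genes along the Oas run of chromosome 5, in reference order from Rasal1 to Ptpn11, with a point for the mean of each line's 3 libraries and a bar from the lowest to the highest library. Oas2, Oas3, Oas1g and Oas1a are lower in dKO than in WT, and Ptpn11 at the end of the run is higher.

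Most of the family sits in 1 run on chromosome 5, and its neighbours give the local context. In the reference gene order the run reads Rasal1, Dtx1, Oas2, Oas3, Oas1e, Oas1c, Oas1b, Oas1f, Oas1h, Oas1g, Oas1a, Oas1d and Ptpn11. Oas1d, a paralog outside the 34 genes, was at 2.2 ± 0.154 TPM (SD, n = 3) in WT, 0.109 ± 0.0433 TPM in dKO and 0.229 ± 0.0256 TPM in dCD, with log2 fold changes of -1.53 and -1.38. It reached 1 TPM in the WT libraries alone and so had to differ, and its p-values are not used. Dtx1, a Notch pathway ubiquitin ligase at the Oas2 end, fell by 1.69 in dKO (limma adjusted p = 9.37e-10) and by 0.34 in dCD (adjusted p = 0.000285). Rasal1, a Ras GTPase activator, fell by 1.59 in dKO (adjusted p = 2.98e-09) and by 0.81 in dCD (adjusted p = 1.16e-06). Ptpn11, the SHP2 phosphatase at the other end, rose by 0.40 in dKO (adjusted p = 3.53e-07) and by 0.33 in dCD (adjusted p = 3.62e-06). The falls extended past the synthetases on the Oas2 side but not to Ptpn11 on the other. Oas1c and Oas1b, inside the run, changed by less than 2-fold or were not called. Oas1e, Oas1f and Oas1h stayed under the minimum.

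Promoter windows from RefSeq (build GRCm38.p6) run from 250 bases before to 50 bases after each gene's start, and 27 of the 34 genes have one. They were searched on both strands for the letters GAAA, any 2 bases and GAAA again, a short form of the interferon-stimulated response element (ISRE), and for TTCNNNGAA, a form of the gamma-activated site of interferon gamma targets. The ISRE-like letters stand in 3.99% of all 27025 genes with a window and the other letters in 9.55%. Of the 27 genes here, 13 held the ISRE-like letters and 8 the gamma-activated form, with both in Oas1a, Bst2 and Eif2ak2. Because interferon targets make up this group, a high share was built into the choice of genes. Of the 9 tested genes with the ISRE-like letters, 4 (Oas1a, Oas1g, Oas3 and Ddx58) fell at least 2-fold in dKO and the same 4 in dCD. The 4 untested genes with the letters, Ifih1, Ifit1, Ifit3 and Rsad2, had more reads in both mutant lines than in WT. So did Oasl2 and Irf7, the untested genes with a window and no such letters. All of these rest on few reads, and a link between the letters and the direction was not tested. Of the 12 tested genes with a window and no such letters, 1 fell 2-fold in dKO and 0 in dCD by limma, also 0 at the unadjusted p. Over all tested genes, 11.4% of the 350 with the letters and 7.51% of the 10190 without fell 2-fold in dKO, and 4.0% and 2.03% in dCD. These are descriptions of letters in a window, and no factor's binding was measured here.

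The windows of the 4 genes above, of Rnf213, which fell in dKO and lacks the letters, and of Bst2 and Isg15, which carry the letters and did not fall, are printed 5′ to 3′ on the strand of the gene, with the ISRE-like letters in capitals on whichever strand they matched and overlapping matches joined. Their positions in GRCm38.p6 are chr5:120907476-120907775, minus strand (Oas1a), chr5:120887564-120887863, minus strand (Oas1g), chr5:120777610-120777909, minus strand (Oas3), chr4:40239776-40240075, minus strand (Ddx58), chr11:119389849-119390148, plus strand (Rnf213), chr8:71537423-71537722, minus strand (Bst2) and chr4:156200769-156201068, minus strand (Isg15).
Oas1a: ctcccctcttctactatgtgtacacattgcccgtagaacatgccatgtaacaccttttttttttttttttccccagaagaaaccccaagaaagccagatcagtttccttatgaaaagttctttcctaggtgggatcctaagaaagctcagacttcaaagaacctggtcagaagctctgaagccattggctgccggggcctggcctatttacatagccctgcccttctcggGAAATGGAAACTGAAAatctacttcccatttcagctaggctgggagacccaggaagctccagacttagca
Oas1g: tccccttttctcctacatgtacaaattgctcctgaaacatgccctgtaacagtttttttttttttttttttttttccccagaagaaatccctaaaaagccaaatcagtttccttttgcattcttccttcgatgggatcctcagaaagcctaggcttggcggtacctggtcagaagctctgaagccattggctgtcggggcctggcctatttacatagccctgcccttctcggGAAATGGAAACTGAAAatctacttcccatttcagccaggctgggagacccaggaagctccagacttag
Oas3: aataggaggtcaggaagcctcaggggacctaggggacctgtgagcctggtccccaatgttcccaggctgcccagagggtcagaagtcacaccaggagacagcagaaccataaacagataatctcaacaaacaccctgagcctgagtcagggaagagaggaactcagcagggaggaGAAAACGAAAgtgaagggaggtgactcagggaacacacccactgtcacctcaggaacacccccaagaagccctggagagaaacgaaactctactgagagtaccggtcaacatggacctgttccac
Ddx58: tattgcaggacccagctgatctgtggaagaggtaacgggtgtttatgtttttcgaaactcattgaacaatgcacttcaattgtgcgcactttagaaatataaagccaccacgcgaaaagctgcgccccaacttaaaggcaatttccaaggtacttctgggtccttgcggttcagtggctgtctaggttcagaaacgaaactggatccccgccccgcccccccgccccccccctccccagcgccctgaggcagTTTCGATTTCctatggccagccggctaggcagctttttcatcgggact
Rnf213: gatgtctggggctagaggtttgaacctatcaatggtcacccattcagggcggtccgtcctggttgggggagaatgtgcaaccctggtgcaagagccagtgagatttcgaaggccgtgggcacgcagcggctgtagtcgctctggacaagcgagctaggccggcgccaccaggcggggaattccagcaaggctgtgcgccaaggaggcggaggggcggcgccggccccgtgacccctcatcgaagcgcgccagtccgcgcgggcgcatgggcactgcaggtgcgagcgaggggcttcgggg
Bst2: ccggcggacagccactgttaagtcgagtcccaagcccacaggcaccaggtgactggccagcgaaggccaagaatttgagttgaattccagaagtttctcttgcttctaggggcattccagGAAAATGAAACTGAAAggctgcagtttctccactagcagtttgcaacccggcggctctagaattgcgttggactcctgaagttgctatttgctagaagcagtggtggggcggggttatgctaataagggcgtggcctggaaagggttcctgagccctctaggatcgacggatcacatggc
Isg15: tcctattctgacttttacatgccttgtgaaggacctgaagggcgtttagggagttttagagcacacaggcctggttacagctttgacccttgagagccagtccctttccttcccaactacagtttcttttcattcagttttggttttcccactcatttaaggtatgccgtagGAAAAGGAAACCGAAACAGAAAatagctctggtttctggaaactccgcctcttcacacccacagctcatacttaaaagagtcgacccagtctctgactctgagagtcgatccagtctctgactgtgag
The windows of Oas1a and Oas1g are identical at 261 of 294 aligned bases (88.8%) and carry the same capitals, whereas other pairs among Oas1a, Oas1c, Oas1g and Oas3 are identical at 39.7% to 44.3%. Bst2 and Isg15 hold the same kind of letters as the genes that fell.

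The cytoplasmic sensors split by member. Ddx58, which encodes RIG-I, the sensor of short RNA with a 5′ triphosphate, was at 17.4, 17.0 and 15.9 TPM in WT, 4.75, 4.69 and 3.9 TPM in dKO, and 5.87, 6.9 and 5.94 TPM in dCD. All mutant libraries lay below all WT libraries, and dKO lay below dCD. The log2 fold change was -1.71 (SE 0.0792, limma adjusted p = 1.75e-08) in dKO and -1.30 (adjusted p = 3.28e-07) in dCD, with a difference between them of -0.41 (adjusted p = 0.000935). Its promoter window, printed above, holds the ISRE-like letters.

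Dhx58, which encodes LGP2, a helicase that tunes RIG-I and MDA5, was at 1.73, 1.51 and 1.68 TPM in WT. It rose to 2.53, 2.5 and 3.1 TPM in dKO (0.49, limma adjusted p = 0.00127). In dCD it was at 1.83, 1.64 and 1.4 TPM, overlapping WT (-0.01, adjusted p = 0.94). Mavs, the mitochondrial adaptor of both sensors, was at 70.6, 67.4 and 67.4 TPM in WT. In dKO it was at 72.1, 68.4 and 69.9 TPM, with overlapping libraries (0.03, adjusted p = 0.436). In dCD it was at 51.2, 48.2 and 52.7 TPM, below every WT library (-0.43, adjusted p = 4.77e-06). Dhx58 and Mavs thus each differed from WT in a single line, and the difference of dKO from dCD was itself called for both (0.50, adjusted p = 0.0012, and 0.46, adjusted p = 1.59e-06).

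Trim25, a ubiquitin ligase that activates RIG-I, had the highest level of the 34 genes in WT, at 175.9, 165.6 and 169.7 TPM. Its level was 115.8, 119.0 and 116.0 TPM in dKO, below every WT library, and 202.5, 194.2 and 197.1 TPM in dCD, above every WT library. The log2 fold change was -0.54 in dKO (limma adjusted p = 3.35e-08) and 0.22 in dCD (adjusted p = 7.14e-05). The difference of dKO from dCD was -0.75 (SE 0.0273, adjusted p = 3.52e-09).

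**Figure D3:**
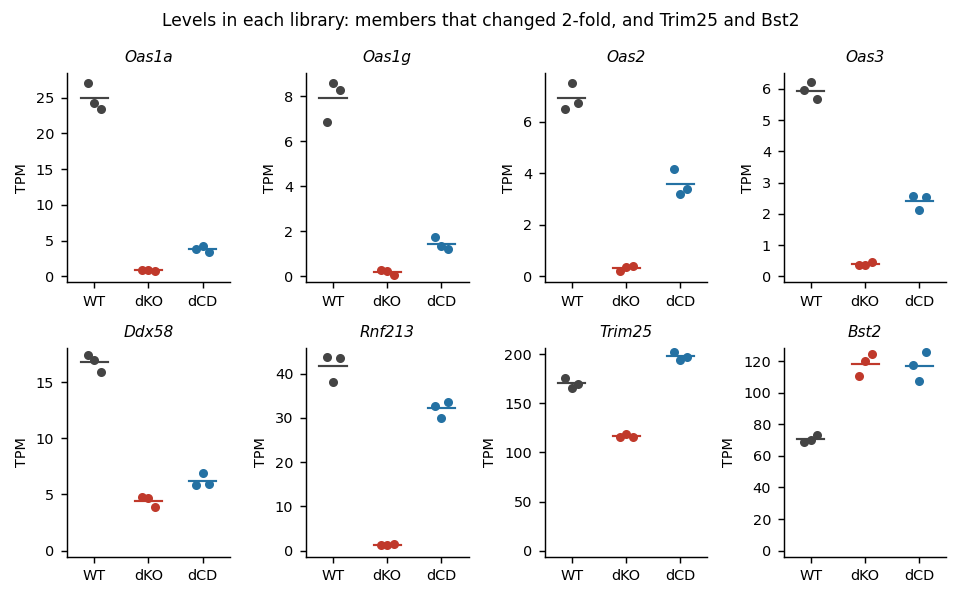
TPM in each library (points) with the mean of each line (bars) for the 6 genes that changed 2-fold and for Trim25 and Bst2. The dKO points of Oas1a, Oas1g, Oas2, Oas3 and Rnf213 sit far below the WT points, and Trim25 lies below WT in dKO and above WT in dCD.

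The receptor chains and transcription factors changed by less than 2-fold throughout. Ifnar1, a chain of the type I interferon receptor, was at 22, 22 and 24.2 TPM in WT, 27, 28.2 and 28.0 TPM in dKO and 26.1, 26.9 and 25.2 TPM in dCD, above every WT library in both lines (0.28, limma adjusted p = 0.000211, and 0.19, adjusted p = 0.00364). Ifnar2, its high-affinity chain, was at 11.2, 12.4 and 10.9 TPM in WT. It rose to 17.4, 17.8 and 17.6 TPM in dKO (0.58, adjusted p = 2.13e-05). In dCD, Ifnar2 was at 10.6, 9.92 and 11.9 TPM and overlapped WT (-0.08, adjusted p = 0.311). On chromosome 16 the receptor genes stand together with Il10rb, a receptor chain for interleukin-10 and interferon lambda, which was higher in dKO (0.80, adjusted p = 2.33e-05) and in dCD (0.42, adjusted p = 0.00304). Ifngr2, a chain of the interferon gamma receptor in the same run, was lower in both (-0.28 and -0.32).

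Among the factors, Stat2 was at 46.7 ± 2.01 TPM (SD, n = 3) in WT, 44.4 ± 1.51 in dKO and 46.3 ± 2.37 in dCD, and was called in neither line (-0.07, limma adjusted p = 0.192, and -0.01, adjusted p = 0.843). Under median-ratio scaling the dKO value became -0.17 (adjusted p = 0.00409). Irf3, the factor that Mavs signalling activates, was at 30.2 ± 0.675 TPM in WT and 38.2 ± 0.747 in dKO (0.33, adjusted p = 3.45e-06), with 31.8 ± 0.442 in dCD (0.07, adjusted p = 0.0627). Irf9, the DNA-binding partner of Stat2, fell by 0.20 in dKO (adjusted p = 0.0146), and without dKO replicate 2 its adjusted p was 0.0563. Irf1, an interferon gamma-induced factor, fell by 0.21 in dKO (adjusted p = 0.00263) and was not called in dCD (0.04).

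Among the effectors, Rnf213, a giant ubiquitin ligase with antimicrobial activity, was at 43.8, 38.1 and 43.6 TPM in WT, 1.34, 1.28 and 1.49 TPM in dKO, and 32.8, 30 and 33.7 TPM in dCD. The dKO libraries stood far below the other 6, and the dCD libraries lay below WT without overlap. The log2 fold change was -4.17 (SE 0.0661, limma adjusted p = 1.04e-11) in dKO and -0.37 (adjusted p = 0.000813) in dCD, and dKO was below dCD by -3.81 (adjusted p = 2.12e-11). In the voom fit without the added 1 TPM, the dKO value was -4.95 (SE 0.0957), where that of Oas1g was -5.47 (SE 0.452). Its RefSeq promoter window, printed above, holds no ISRE-like letters.

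Bst2, or tetherin, which holds budding virus particles on the cell surface, was at 68.6, 70.3 and 73.2 TPM in WT, 110.7, 120.0 and 124.2 TPM in dKO and 117.8, 107.3 and 125.7 TPM in dCD. Both mutant lines lay above WT and overlapped each other (0.73, limma adjusted p = 1.1e-06, and 0.72, adjusted p = 2.77e-06). The difference between them was 0.02 (adjusted p = 0.796). Eif2ak2, which encodes PKR, the kinase that stops translation on binding duplex RNA, was at 20 ± 1.13 TPM (SD, n = 3) in WT, 22.2 ± 0.647 in dKO and 25.5 ± 1.39 in dCD. It rose in dCD (0.33, adjusted p = 0.000293). Its dKO call (0.15, adjusted p = 0.026) was lost under median-ratio scaling (adjusted p = 0.356) and, at 0.055 to 0.101, without WT replicate 1 or 2 or dKO replicate 1 or 3.

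Isg15, a ubiquitin-like modifier induced strongly by interferon, rested on few reads, at 0, 3 and 1 in WT, 2, 3 and 1 in dKO and 12, 9 and 13 in dCD. These are 0, 0.322 and 0.208 TPM in WT, 0.342, 0.401 and 0.152 TPM in dKO and 1.46, 1.23 and 1.01 TPM in dCD, so the gene passed the minimum through the dCD libraries alone and had to differ there. Its log2 fold change was 0.93 in dCD (limma adjusted p = 0.000367) and 0.15 in dKO (adjusted p = 0.398). The dCD value in the voom fit was 2.46.

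Adar, the enzyme that converts adenosine to inosine in RNA duplexes, was at 27.3 ± 0.508 TPM (SD, n = 3) in WT, 25.4 ± 0.441 in dKO and 24.8 ± 1.15 in dCD, lower by 0.10 or more (-0.10, limma adjusted p = 0.0398, and -0.13, adjusted p = 0.0134). Its dKO call was lost without a minimum on TPM (adjusted p = 0.0546) and, at 0.0576 to 0.114, without any WT replicate or dKO replicate 1 or 2. Samhd1, which breaks down the nucleotides needed for DNA synthesis, ran from 25.2 to 28.3 TPM in WT, 27.6 to 29.2 TPM in dKO and 26.7 to 28.6 TPM in dCD, with overlapping libraries and no call.

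Parp9, a mono-ADP-ribosyltransferase family member, and its partner ligase Dtx3l are divergent neighbours with starts that overlap, and no strand setting is stated, so their reads near the starts cannot be told apart. Dtx3l was at 8.71, 7.45 and 7.41 TPM in WT. Its dCD libraries were at 4.93, 5.18 and 5.38 TPM, below every WT library (-0.52, limma adjusted p = 7.8e-05). In dKO it was at 8.62, 8.92 and 9.2 TPM, overlapping WT at the margin of the threshold (0.17, adjusted p = 0.0473, and 0.327 under median-ratio scaling). The dKO call was also lost, at 0.0537 to 0.147, when any single library other than WT replicate 1 was left out. Parp9 was at 5.8 ± 0.386 TPM (SD, n = 3) in WT, 6.37 ± 0.574 in dKO and 5.2 ± 0.305 in dCD, and was called in neither line. Parp14, a related enzyme, fell from 2.48 ± 0.117 TPM in WT to 1.52 ± 0.233 in dKO (-0.47, adjusted p = 0.000952) and was at 2.26 ± 0.13 TPM in dCD, where it was not called (-0.09). Next to this run on chromosome 16, Wdr5b, a WD-repeat gene, was higher in dKO (0.86, adjusted p = 7.64e-06), and Sema5b, a semaphorin, was lower in dCD (-0.91, adjusted p = 5.42e-07).

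The 8 genes under the minimum held at most 75 reads in a library, and they are described by their reads. Where WT had a read, exact counting intervals at 95% are given, which cover counting error only. Ifih1, the MDA5 sensor of long RNA duplexes, had 3, 3 and 0 reads in WT, 10, 14 and 15 in dKO and 23, 22 and 39 in dCD. Every mutant library exceeded every WT library, and the depth-adjusted ratio to WT was 6.41 (2.69 to 18.5) in dKO and 9.85 (4.34 to 27.6) in dCD. Rsad2, or viperin, which makes a chain-terminating nucleotide, had 0, 1 and 1 reads in WT, 4, 16 and 14 in dKO and 15, 22 and 21 in dCD, a ratio of 16.8 (4.3 to 144) and 20.4 (5.4 to 173). Oasl2, a synthetase-like gene, had 3, 8 and 5 reads in WT, 7, 7 and 9 in dKO and 39, 25 and 75 in dCD. Only its dCD ratio had an interval above 1, at 6.11 (3.63 to 11), against 1.42 (0.717 to 2.87) in dKO.

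Irf7, the factor that amplifies interferon production, had 7 to 13 reads in WT, 16 to 19 in dKO and 14 to 32 in dCD, with ratios of 1.71 (1.07 to 2.77) and 1.57 (1.01 to 2.5). Usp18, the protease that removes Isg15, had 1 read in the whole of WT, 6 in dKO and 12 in dCD, and the ratios were 5.91 (0.717 to 272) and 8.45 (1.25 to 361). Ifit1, a binder of foreign 5′ RNA ends, had 0 reads in all WT libraries, which allows 0.0916 to 0.177 TPM per library at 3 reads. Adjusted for depth, its 10 reads in dKO and 12 in dCD were 3.29-fold and 2.82-fold an assumed 3 reads over the WT group. These ratios leave out the counting error of the mutant reads, so they are not interval bounds. Ifit3, its partner, had 0 reads in WT, 2 in dKO and 8 in dCD, and the 8 were 1.88-fold the same assumed 3 reads. Beside them on chromosome 19, Ifit2, of the same family, was at 0.6 to 0.681 TPM in WT, 2.38 to 2.99 TPM in dKO and 0.815 to 0.945 TPM in dCD, and it entered the test through dKO alone and so had to differ. Lipa, the lysosomal acid lipase, rose by 2.09 in dKO (limma adjusted p = 6.24e-11) and by 0.69 in dCD (adjusted p = 4.82e-07). Rtp4, a chaperone-like effector, went the other way, with 5, 7 and 6 reads in WT, 1 in each dKO library, and 3, 1 and 3 in dCD (ratios 0.164, 0.031 to 0.563, and 0.274, 0.0966 to 0.687). In TPM all 8 stayed under 1 in every library, so these differences lie at the bottom of the measured range.

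**Figure D4:**
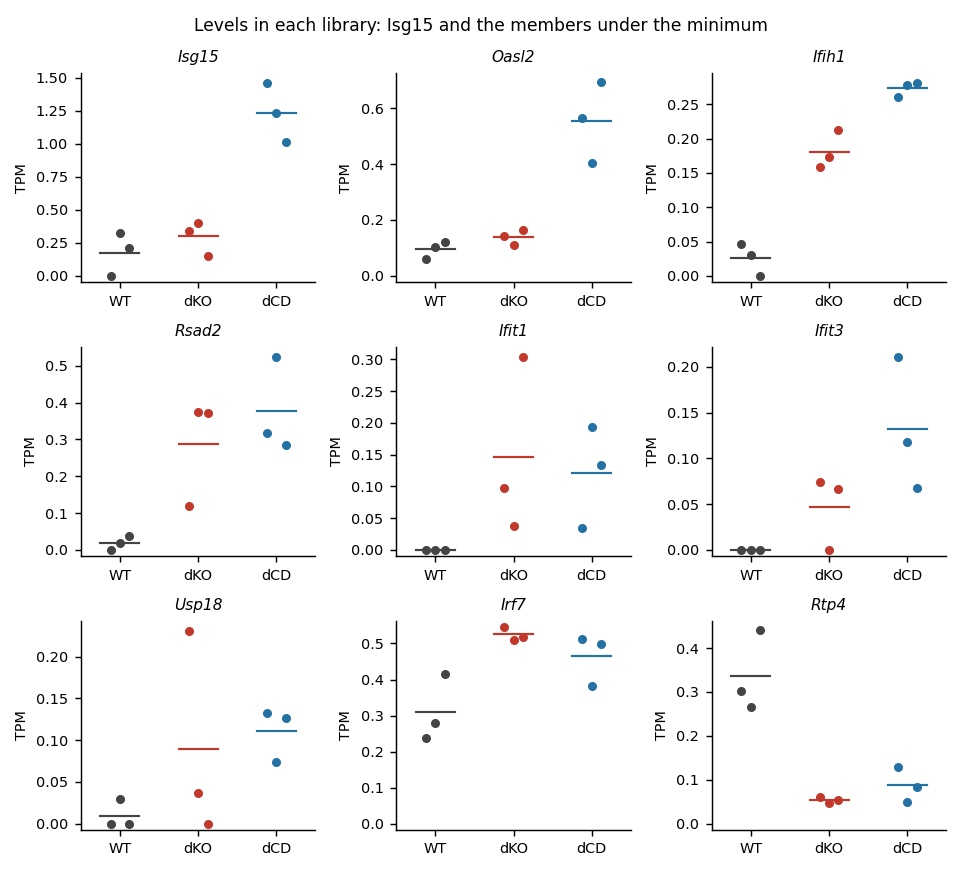
TPM in each library (points) with the mean of each line (bars) for Isg15 and the 8 genes under the minimum. Ifih1, Rsad2, Oasl2 and Isg15 have their highest mean in dCD, and Rtp4 has its highest in WT.

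Limma's voom on the recovered reads, with genes of at least 10 reads over the 9 libraries, was added after seeing these values so that the 8 genes could be tested. It called 32.4% of 23301 genes higher and 25% lower in dKO, and 24.9% and 23.8% in dCD. Oasl2, Irf7 and Rtp4 had 16, 30 and 18 reads in WT alone and passed this minimum without the mutant lines. In dKO, Irf7 was higher (0.77, voom adjusted p = 0.0392), Rtp4 was lower (-2.12, 0.00343) and Oasl2 was not called. In dCD, Oasl2 was higher (2.51, 9.8e-07), Rtp4 was lower (-1.74, 0.00662) and Irf7 was not called (0.63, 0.0925). Ifih1 had 6 reads in WT, and the mutant lines were sequenced no less deeply, so an unchanged level would also have passed. It was called higher in dKO (2.70, voom adjusted p = 0.0001) and dCD (3.30, 3.69e-06), on few WT reads. Rsad2, Usp18, Ifit1 and Ifit3, with 0 to 2 reads in WT, passed only with the mutant reads. They had to differ to some degree, which leaves their calls without weight. Among these, the fit called Rsad2 and Ifit1 higher in both lines, and Usp18 and Ifit3 higher in dCD.

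The direct comparison of the mutant lines asks where loss of the proteins and loss of their activity differ. In dKO against dCD, 6 of the 26 genes were higher, 12 were lower and 8 were not called, where the shares over all genes were 42.3% higher and 27% lower (69.3% in either direction). Isg15, one of the 12 and of the non-overlapping genes below, passed the minimum through the dCD libraries alone and had to differ. Over all genes the higher calls were 61.0% of calls as deposited and 49.8% under median-ratio scaling. Falls of at least 2-fold were called for 5 genes (Oas1a, Oas1g, Oas2, Oas3 and Rnf213), against 7.36% of all genes. Rises of at least 2-fold numbered 0 by limma, also at the unadjusted p, and 0 by voom, against 3.60% of all genes. The median was -0.08 for the group and 0.10 for all genes, and libraries did not overlap for 19 of the 26 genes, against 73.1% of all.

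The wider pathway was read through 106 further genes, of which 66 were tested. In dKO against WT 35 of the 66 were higher and 21 lower, with 9 and 6 at 2-fold, where the shares over all genes were 43.4% and 28.4%, and 6.01% and 7.89% at 2-fold. In dCD 27 were higher and 17 lower, with 7 and 2 at 2-fold, where the shares over all genes were 28.9% and 29.5%, and 4.62% and 2.32% at 2-fold. The 2-fold rises include genes, named with each list below, that passed the minimum through mutant libraries and so had to differ. Of 14 interferon ligand genes, 11 had 0 reads in all 9 libraries and the other 3 had at most 6 reads in a line, so none was tested.

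**Figure D5:**
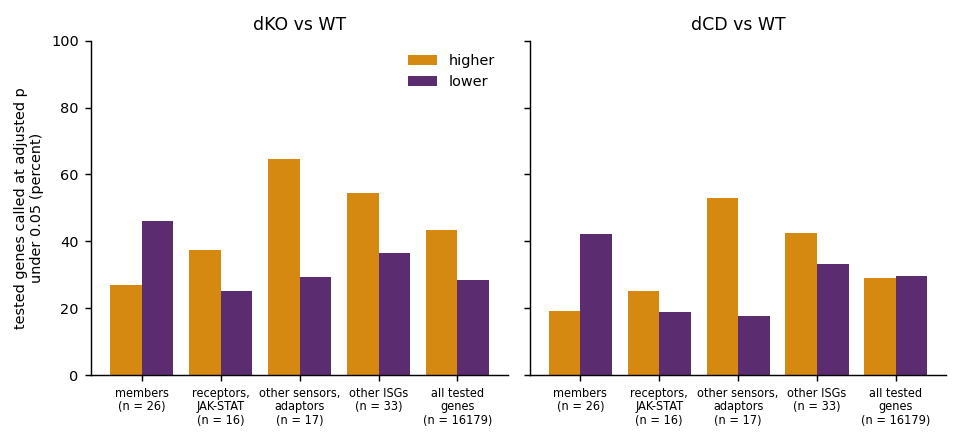
Percent of tested genes called higher and lower (bars) in dKO and dCD against WT, for the 26 tested genes of the group, for 3 lists of further pathway genes (16, 17 and 33 tested) and for all 16179 tested genes. Lower calls are 12 of 26 genes in dKO against WT, where 28.4% of all genes were lower.

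Of 16 tested genes of receptors and JAK-STAT signalling, 6 were higher and 4 lower in dKO, near the 43.4% and 28.4% over all genes. Socs3, a feedback inhibitor of JAK kinases, rose from 163.2 ± 1.92 TPM (SD, n = 3) to 399.9 ± 4.22 in dKO (1.29, limma adjusted p = 1.81e-11) and stayed at 161.7 ± 3.74 in dCD (-0.01, adjusted p = 0.639). Irf2 (1.63, adjusted p = 3.6e-07) and the interferon gamma receptor chain Ifngr1 (1.0, adjusted p = 7.54e-07) were higher in dKO, and Irf5 was lower (-1.11, adjusted p = 8.4e-06). Irf2 reached 1 TPM in the 3 dKO libraries alone and so had to differ there. It was also called higher in dCD (0.54, adjusted p = 0.00192). In dCD, 4 of the 16 were higher and 3 lower, and 2-fold calls numbered 0 in either direction by limma, also at the unadjusted p. The dCD shares over all genes were 28.9% higher and 29.5% lower, and 4.62% and 2.32% at 2-fold.

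Of 17 other tested sensors and adaptors, 11 were higher and 5 lower in dKO (43.4% and 28.4% over all genes), and 9 and 3 in dCD (28.9% and 29.5%). Myd88, the adaptor of Toll-like receptors, rose in dKO from 9.55 ± 0.137 to 21.7 ± 0.898 TPM (SD, n = 3; 1.11, limma adjusted p = 7.53e-09). Rnf135, a ligase that acts on RIG-I, was lower in dKO (-1.27, adjusted p = 3.59e-07) and was not called in dCD (-0.00, adjusted p = 0.984). Tmem173, which encodes STING, the adaptor of cytoplasmic DNA sensing, was higher in dCD, from 0.886 ± 0.159 to 2.81 ± 0.648 TPM (1.0, adjusted p = 7.41e-05), and in dKO (0.39, adjusted p = 0.0181). The WT libraries, at 1.06, 0.845 and 0.751 TPM, did not meet the minimum, so Tmem173 passed it through the mutant libraries.

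Of 33 other tested interferon-stimulated genes, 18 were higher and 12 lower in dKO, with 5 and 4 at 2-fold (over all genes 43.4% and 28.4%, and 6.01% and 7.89% at 2-fold). In dCD 14 were higher and 11 lower, with 6 and 2 at 2-fold (over all genes 28.9% and 29.5%, and 4.62% and 2.32% at 2-fold). Among the 6 dCD rises, Ifi27, Gbp2, Gbp3, Irgm1 and Cxcl10 were under 1 TPM in every WT library. Among the 5 dKO rises, so were Ifit2, Gbp2 and Nmi. These genes passed the minimum through mutant libraries and so had to differ, which leaves the counts of 2-fold rises without weight. B2m, the light chain of MHC class I, rose from 38.7 ± 2.66 TPM (SD, n = 3) in WT to 126.1 ± 4.82 in dKO and 102.3 ± 8.78 in dCD (1.68, limma adjusted p = 3.91e-09, and 1.38, adjusted p = 4.33e-08). Gbp2, an interferon-induced GTPase, was at 0.124 ± 0.0815, 2.74 ± 0.186 and 6.39 ± 0.681 TPM in the same order (1.74 and 2.72). It reached 1 TPM in the mutant libraries alone and so had to differ from WT, and its p-values are not used. Zc3hav1, which encodes the antiviral protein ZAP, fell from 78.8 ± 1.82 to 27.6 ± 2.14 TPM in dKO and 45.2 ± 1.89 in dCD (-1.49, adjusted p = 2.42e-09, and -0.79, adjusted p = 6.44e-07). Tor3a was lower in dKO (-1.39, adjusted p = 8.62e-08) and in dCD (-0.59, adjusted p = 0.00011). Xaf1 was lower in dKO (-0.94, adjusted p = 6.93e-07) and in dCD (-1.74, adjusted p = 1.7e-08).

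Pml, the scaffold of nuclear bodies, moved in opposite directions, from 199.9 ± 5.4 TPM (SD, n = 3) in WT to 303.7 ± 5.24 in dKO (0.60, limma adjusted p = 3.34e-08) and 58.8 ± 2.05 in dCD (-1.75, adjusted p = 7.57e-11). The difference of dKO from dCD was 2.35 (adjusted p = 3.52e-12). The chemokine Cxcl10 was at 0.116 ± 0.0512 TPM in WT, 0.669 ± 0.083 in dKO and 3.54 ± 0.454 in dCD, with dKO below dCD by -1.44. It passed the minimum through the 3 dCD libraries alone and so had to differ, and its p-values are not used. Irgm2 and Ifi35, which reached 1 TPM in every WT library, were lower in dKO than in dCD (-1.16, limma adjusted p = 2.52e-06, and -1.03, adjusted p = 7.01e-05).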

How the data were processed

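Polyadenylated RNA-seq of 9 libraries, 3 each of WT, dKO and dCD, was analysed; the other 39 samples, of chromatin and nascent RNA, were not analysed here. The authors deposited TPM values per gene with gene lengths. HISAT2, featureCounts, DESeq2 and the build mm9 are named per the submitters' processing notes. The sources used here do not state versions, annotation, strand setting or how multi-mapped reads were counted. TPM multiplied by length gave whole reads for 100% of values within 0.01, which gave the depths in reads. Samples were grouped by title. A gene was tested where 3 or more of the 9 libraries reached 1 TPM, using limma 3.58.1 under R 4.3.3 (lmFit, eBayes with trend) on log2(TPM + 1), with 1 fit over all libraries, 3 contrasts, two-sided tests and Benjamini-Hochberg adjustment over all 16179 genes at a threshold of 0.05. On this log2 scale a 2-fold change is 1, and the added 1 shrinks the change of low genes. The method was tested on simulated data.

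Alternatives were pseudocounts, minimums, median-ratio and quantile scaling, voom on recovered reads, the replicate block and each library left out. The genes and lists were chosen with earlier results of these data known. Values in every library were planned for genes called at 2-fold, and values for up to 2 further genes per role by highest mean TPM; those of Ifnar1, Ifnar2, Dhx58, Oasl1, Irf1, Irf9 and Parp14 were added after their values were seen, as was the choice of windows printed. Of each pathway list, up to 4 genes per contrast with the smallest p among 2-fold calls are named. A few genes that this rule or the rule on neighbouring genes would name are not reported here. Promoter sequences are from RefSeq, GRCm38.p6, matched by symbol for 27 of 34 genes; no coordinates of the mm9 files are printed. Gene order came from RefSeq by symbol. Python 3.11.15, pandas 2.3.3, numpy 2.4.6 and matplotlib 3.10.9 made tables and plots.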

Additional observations from a re-analysis of the deposited data

Results flagged for a closer look

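Trim25 was picked out because every dKO library lay below every WT library and every dCD library above every WT library, so the lines moved in opposite directions. Its log2 fold change of dKO against dCD was -0.75, and the way the gene was picked fixes the direction of that difference, so its adjusted p in the report is no separate support.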

How the results depend on the processing

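Of 1464 values, from the 26 tested genes in 3 comparisons under 19 settings, 1410 kept their side of the threshold, 40 lost a call and 14 gained one. Of the 1410, 29 changed sign while called under neither setting, and no called value reversed. Counting only 2-fold changes left 0 higher and 6 lower genes in dKO against WT, 0 and 4 in dCD against WT, and 0 and 5 in dKO against dCD. Without a minimum on TPM, the higher genes in dCD numbered 9. Voom with the added minimum of 10 reads, which tests more genes, gave 11 higher genes in dKO and 11 in dCD, with 3 and 7 of them at 2-fold. The count of 2-fold rises in dCD became 1 at pseudocounts of 0.1 and 0.5 and under voom, and ran from 0 to 1 when 1 library was left out, at 1 without WT replicate 2 or dCD replicate 3. That gene was Isg15. The median of the group in dKO, -0.10, was 0.05 with no minimum and 0.04 in the added voom fit. The cause of these moves was not tested beyond the larger number of genes in fits with a lower minimum. Calls lost beside those named above include Parp9 in dKO against dCD (adjusted p = 0.0775 under median-ratio scaling, 0.0566 without dKO replicate 3 and 0.0516 without dCD replicate 1) and Oas1c there (0.0546 without dKO replicate 2 and 0.0635 without dCD replicate 3).

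Libraries with the same replicate number did not deviate together (r from -0.0494 to 0.0424 over 9 pairs, and the own number correlated best in 4 of 18 cases), so they share only a number. With the replicate block, 6 genes were higher and 12 lower in dKO against WT, 5 and 10 in dCD, and 6 and 12 in dKO against dCD, with the 2-fold counts as before. Dtx3l in dKO (adjusted p = 0.0759) and Oasl1 in dCD (0.067) were not called under the block. Depth limits the genes under 1 TPM, where 1 read moves a value visibly.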
